A study of Mus musculus with 12 samples.

Results

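The genes described here are those of the glutathione, thioredoxin and Nrf2 antioxidant systems, chosen by symbol from families of glutathione transferases, glutathione peroxidases, peroxiredoxins, thioredoxins and superoxide dismutases, plus 10 single genes that control or carry out the Nrf2 response. They number 46 of the 10751 gene symbols that occur in the 4 tables used. RefSeq annotates 71 protein-coding mouse genes that match the same rule, and the other 25 were in none of the tables. Membership itself therefore required a called change or a listed peak.

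The groups were day 4 cells, differentiated by a calcium shift, and day 0 cells, undifferentiated, with 3 anti-m6A immunoprecipitated (IP) and 3 input libraries on each day, 12 in all. All were primary keratinocytes of newborn mouse epidermis, kept to passage 3 on 3T3 feeder fibroblasts treated with mitomycin C, in low-calcium medium with serum. Neither the strain nor the number of mice is given in the labels, and nothing says that replicates came from separate cultures, so the p-values reflect spread among these samples alone, and that spread may be technical. No table has a column for a single library: sequencing depth is unknown here, single-library values cannot be shown, and every value is the authors' own over 3 libraries a group.

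Reactive oxygen species are removed in mammalian cells by partly separate systems. Glutathione, a tripeptide built on cysteine, feeds glutathione peroxidases and transferases and is restored by glutathione reductase. Thioredoxin, restored by thioredoxin reductase, feeds peroxiredoxins, which destroy peroxides and are rescued from overoxidation by sulfiredoxin. The transcription factor Nrf2, product of Nfe2l2, induces many of these genes through the antioxidant response element, and Keap1 directs Nrf2 to degradation until oxidants or electrophiles modify it. In epidermis, which faces air, light and chemicals, Nrf2 is known to support cytoprotection. N6-methyladenosine (m6A), the internal mark of mRNA mapped in this study, is recognised by reader proteins that alter the stability and translation of transcripts.

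Most of the 46 genes, but not all, are known antioxidant genes. Txnl4a and Txnl4b share the thioredoxin fold but are known as spliceosome proteins, and Txndc9 is known as a cofactor of the chaperonin that folds tubulin and actin. Txndc5, Txndc11, Txndc12, Txndc15 and Txndc16 carry thioredoxin domains, and several of them work in the endoplasmic reticulum rather than in the cytosolic antioxidant chain.

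Promoter sequence is shown first, because the Nrf2 element is what many of these genes are known to share. The core element was searched as TGACNNNGC on both strands of the RefSeq promoter windows of GRCm38.p6, which run from 250 bases before to 50 bases after each gene's start. Of the 46 genes, 40 had a window, and Gclc, Gsr, Gsta4, Hmox1, Prdx6 and Txnl4a had none. The core was present for 11 of 40 genes (27.5%), against 14.0% of the 27025 genes in the whole promoter table. Those genes were not matched to the members by gene type, expression or base composition, and the difference was not tested. Some members were also chosen for their part in the Nrf2 response. With a further A at the 3′ end of the motif, 2 of 40 genes (5.0%) matched, Txnrd1 and Gsta3, against 3.45% of all genes. The Srxn1 match lay after the gene start and is not printed. The 8 matches before the start of genes that also have an expression value follow with flanking bases, read along the gene's strand, with the 9 matching bases in capitals.
Prdx1: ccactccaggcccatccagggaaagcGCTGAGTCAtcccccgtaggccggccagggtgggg
Gclm: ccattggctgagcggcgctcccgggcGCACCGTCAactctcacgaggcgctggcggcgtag
Txnrd1: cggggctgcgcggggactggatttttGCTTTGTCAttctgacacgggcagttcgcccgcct
Nfe2l2: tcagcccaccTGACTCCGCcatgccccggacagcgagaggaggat
Mgst1: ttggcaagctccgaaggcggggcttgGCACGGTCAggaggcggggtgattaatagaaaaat
Gstm5: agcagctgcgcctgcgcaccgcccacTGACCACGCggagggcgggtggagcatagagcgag
Sod1: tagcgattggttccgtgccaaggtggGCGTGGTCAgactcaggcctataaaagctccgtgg
Txndc5: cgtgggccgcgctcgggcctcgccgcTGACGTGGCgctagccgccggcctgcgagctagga

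The Prdx1 window is chr4:116685440-116685500 on the plus strand, and its match begins at position -133, counted from the gene start used by that promoter entry. Its match is the only one of the 11 that also contains TGACTCA, the core bound by AP-1 factors, so both readings share the same bases. The Gclm window is chr3:122245397-122245457 (plus strand, match at -134), and the Txnrd1 window is chr10:82859088-82859148 (plus strand, match at -92). The Nfe2l2 window is chr2:75704869-75704913 on the minus strand and begins at the edge of its promoter entry, with the match at -240. The Mgst1 window is chr6:138140445-138140505 (plus strand, match at -56), the Gstm5 window chr3:107895786-107895846 (plus strand, match at -42) and the Sod1 window chr16:90220680-90220740 (plus strand, match at -56). The Txndc5 window is chr13:38528018-38528078 on the minus strand, with the match at -138. The table holds several starts for some genes, 47 entries for the 40 genes, and the Gclm, Txnrd1 and Txndc5 windows belong to starts inside the longer annotated gene. A match describes letters in this window and is not a measured binding site. The genes with a match did not move as a block. Of the 9 with an expression value, Srxn1, Mgst1, Gstm5 and Prdx1 were higher at day 4, while Gclm, Txndc5, Sod1, Txnrd1 and Nfe2l2 were lower in the authors' deposited table.

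The expression comparison asks which of these transcripts change as epidermal progenitors differentiate. The largest rises among genes whose mean normalized count (the mean count, over the libraries compared) reached 100 were those of the plasma glutathione peroxidase Gpx3 and of sulfiredoxin Srxn1, and the largest falls those of the alpha-class transferases Gsta1 and Gsta2. The Nrf2 gene, the genes of glutathione synthesis and recycling, and the thioredoxins with their reductases were lower wherever they were listed. In total, 31 of the 46 genes were in the authors' deposited table, 11 higher and 20 lower at day 4. That table holds 53.5% of the 14924 genes that its adjustment implies were tested, 27.1% higher and 26.4% lower at day 4, each with a DESeq2 adjusted p under 0.05. Among listed genes of all kinds 50.6% were higher. The median log2 fold change was -0.42 over the 31 members and 0.26 over all listed genes in the authors' deposited table. The median size of the change without its sign was 0.75 in the members and 0.81 in all listed genes. The 15 other members were either not called or not tested: Keap1, Gss, Cat, Hmox1, Gpx8, Gsta3, Gsta4, Gstp1, Mgst2, Prdx4, Txndc9, Txndc11, Txndc12, Txnl4a and Txnl4b. The headers of the comparison tables do not name the direction of change, which was read as day 4 over day 0 from genes and sites with peaks on a single day.

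In bulk RNA, fewer cells of a type and less RNA per cell cannot be told apart. Of 10 keratinocyte markers, 6 were higher, 2 lower and 2 not listed, with the basal keratins Krt5 at 0.96 and Krt14 at 1.06, the differentiation marker Ivl at 3.67 and the basal factor Trp63 at -0.92 on the log2 scale in the authors' deposited table. The cornified-layer markers Lor and Flg were among those not listed. Among the 14 markers of fibroblasts and feeder cells, 5 rose (log2 4.58 for Col5a1, 3.66 for Postn, 2.97 for Acta2, 1.73 for Pdgfra and 1.07 for Fn1), 1 was lower (-2.07 for Col6a1) and 8 were not listed, including Col1a1, Col1a2, Col3a1 and Vim, in the authors' deposited table. The table gives no level per group, and a gene that is not listed has no value. Melanocyte markers had 2 of 8 higher, and immune and endothelial markers 1 of 8 higher and 1 lower. The part of such cells in the results below was not tested.

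**Figure D1:**
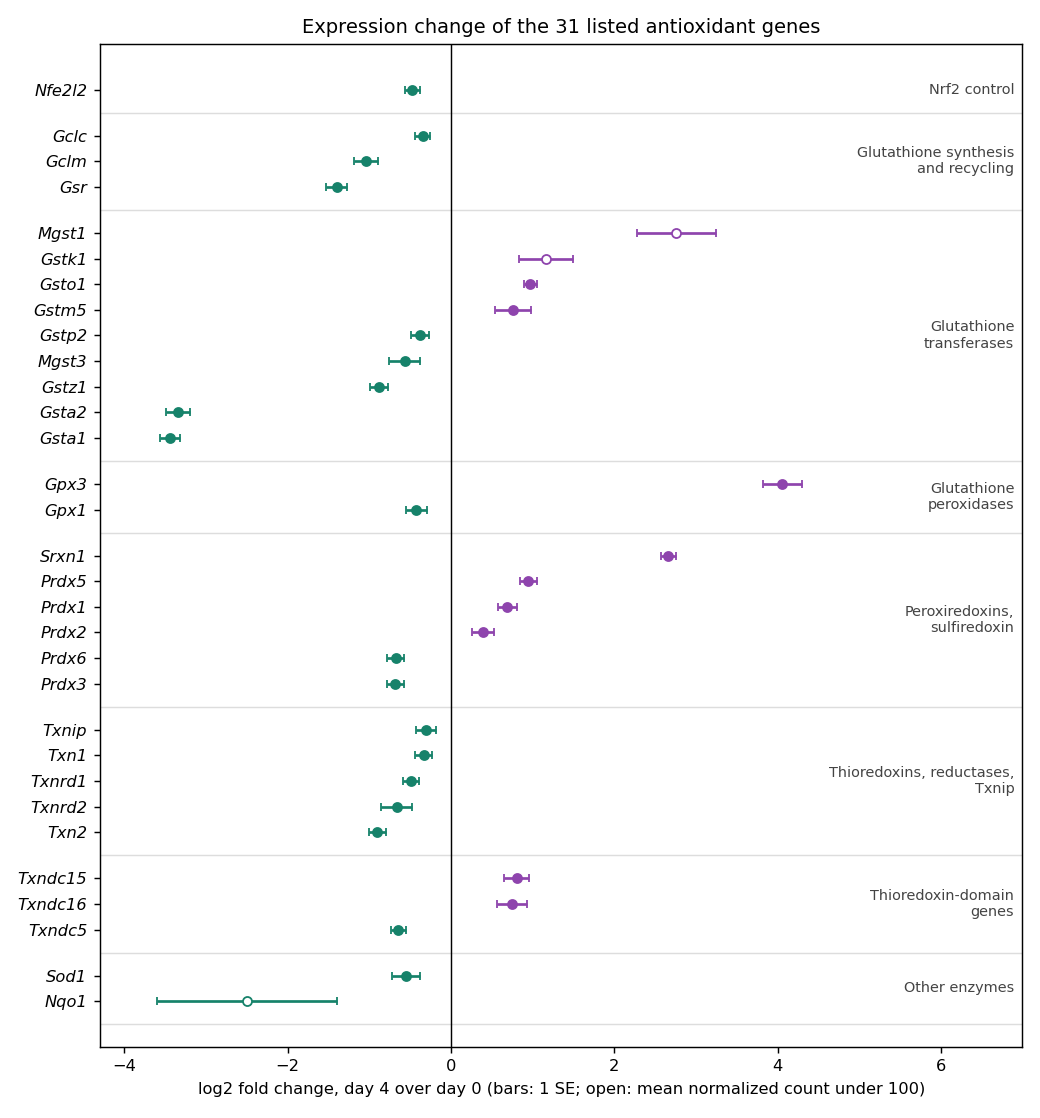
Log2 fold change of each listed member, day 4 over day 0, by role, as points with bars of 1 standard error; open points have a mean count under 100. Gpx3 at 4.06 and Gsta1 at -3.44 mark the ends, and the 5 thioredoxin system genes all lie below 0.

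Of the Nrf2 control genes 1 of 2 fell, with Keap1 not listed, and every listed gene of glutathione synthesis and recycling was lower. Nfe2l2, which encodes Nrf2, had a log2 fold change of -0.47 (SE 0.09, DESeq2 adjusted p = 8.1e-07) in the authors' deposited table, 1.39-fold lower at day 4. Gclc, the catalytic subunit of glutamate-cysteine ligase that sets the pace of glutathione synthesis, was at -0.35 (SE 0.09, DESeq2 adjusted p = 2.0e-04) in the authors' deposited table. Its modifier subunit Gclm was lower by a larger amount, at -1.04 (SE 0.15, DESeq2 adjusted p = 1.5e-11), or 2.06-fold, in the authors' deposited table. Glutathione reductase Gsr, which returns oxidised glutathione to its reduced form, was 2.63-fold lower (log2 -1.40, SE 0.13, DESeq2 adjusted p = 5.9e-27) in the authors' deposited table. So 3 of the 4 synthesis and recycling genes fell, and Gss, the second enzyme of the path, was not listed. Gclm and Gsr had no peak and no called site, so they were members only because their expression was called.

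The 5 listed genes of the thioredoxin branch, among them its inhibitor Txnip, were also lower, where 26.4% of all genes tested were. Of these 5, Txn1, Txnrd1 and Txnrd2 had no peak and no called site. They were therefore members only because their expression was called, which limits what the full count can show. The mitochondrial thioredoxin Txn2 had the largest change, -0.90 (SE 0.10, DESeq2 adjusted p = 3.7e-17), in the authors' deposited table. The mitochondrial reductase Txnrd2 was at -0.67 (SE 0.19) and the cytosolic reductase Txnrd1 at -0.49 (SE 0.10) in the authors' deposited table. Cytosolic thioredoxin Txn1 was at -0.34 (SE 0.11), and Txnip, the protein that binds and inhibits thioredoxin, was at -0.31 (SE 0.12, DESeq2 adjusted p = 0.0244) in the authors' deposited table. None of these 5 changes reached 2-fold, and Txnip would not pass an adjusted p under 0.01.

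Peroxiredoxins, the enzymes that thioredoxin feeds, split by member. Prdx5, found in mitochondria, peroxisomes and cytosol, was 1.93-fold higher at day 4 (log2 0.95, SE 0.10, DESeq2 adjusted p = 2.9e-19) in the authors' deposited table. The cytosolic Prdx1 was at 0.69 (SE 0.12) and the cytosolic Prdx2 at 0.39 (SE 0.14, DESeq2 adjusted p = 0.0105) in the authors' deposited table. The mitochondrial Prdx3 was at -0.68 (SE 0.10) and Prdx6, which uses glutathione, at -0.68 (SE 0.10) in the authors' deposited table. Prdx4, of the endoplasmic reticulum, was not listed. Srxn1, which repairs overoxidised peroxiredoxins and is a known Nrf2 target, rose 6.34-fold (log2 2.66, SE 0.09, DESeq2 adjusted p = 1.3e-201) in the authors' deposited table, while Nfe2l2 itself was lower. The lines of Prdx5 carry the Ensembl identifier of Prdx6 in the files, and the Prdx5 peaks lie within the RefSeq span of Prdx5, so symbols were followed.

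Glutathione peroxidases went opposite ways. Gpx3, a secreted selenoenzyme, was 16.7-fold higher at day 4 (log2 4.06, SE 0.24, DESeq2 adjusted p = 1.5e-61, mean count 175) in the authors' deposited table. Gpx1, the cytosolic selenoenzyme, was 1.34-fold lower (log2 -0.42, SE 0.13, DESeq2 adjusted p = 0.00229) in the authors' deposited table. Gpx8, of the endoplasmic reticulum, was not listed.

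Among the 13 glutathione transferases, which attach glutathione to electrophiles, 4 were higher, 5 lower and 4 not listed. Gsta1 was 10.9-fold lower (log2 -3.44, SE 0.12, DESeq2 adjusted p = 2.8e-171) and Gsta2 10.2-fold lower (log2 -3.35, SE 0.15, DESeq2 adjusted p = 3.0e-109) in the authors' deposited table. These are near-identical neighbours on chromosome 9, so how their reads were split between them is uncertain, and the same holds for Gstp2 (-0.38, SE 0.11) and its unlisted neighbour Gstp1 in the authors' deposited table. Gstz1, which works in tyrosine breakdown, was at -0.88 (SE 0.11) and the microsomal Mgst3 at -0.57 (SE 0.19) in the authors' deposited table. Gsto1, an omega-class enzyme that acts as a thiol transferase and had a mean count of 47703, was 1.96-fold higher (log2 0.97, SE 0.08, DESeq2 adjusted p = 1.7e-30) in the authors' deposited table. Gstm5 was at 0.76 (SE 0.22) in the authors' deposited table. Mgst1 (2.76, SE 0.48) and Gstk1 (1.16, SE 0.33) were higher at low levels, with mean counts of 24.6 for Mgst1 and 49.1 for Gstk1 in the authors' deposited table.

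Of the remaining enzymes, superoxide dismutase Sod1 was at -0.55 (SE 0.17, DESeq2 adjusted p = 0.00234) in the authors' deposited table. The quinone reductase Nqo1, a standard reporter of Nrf2 activity in other cells, was at a low level, with a mean count of 5.52 and a log2 fold change of -2.50 whose SE was 1.10 (DESeq2 adjusted p = 0.0440) in the authors' deposited table. The thioredoxin-domain genes Txndc15 (0.80, SE 0.15) and Txndc16 (0.75, SE 0.18) were higher and the endoplasmic reticulum oxidoreductase Txndc5 (-0.64, SE 0.09) was lower in the authors' deposited table. Changes of at least 2-fold at a mean count of at least 100 were reached by 6 members, Gpx3 and Srxn1 upward and Gsta1, Gsta2, Gsr and Gclm downward. Across all listed genes the same limits kept 9.16% as higher and 13.5% as lower. At least 2-fold at any level held for 4 higher and 5 lower members. On mm10, Gpx3 lies on chromosome 11 from 54902854 to 54910387, Gsr on chromosome 8 from 33653238 to 33698162 and Gclm on chromosome 3 from 122245487 to 122267215. Txnrd1 and Txndc5 each overlap another protein-coding gene (Eid3 for Txnrd1 and Bmp6 for Txndc5), so reads there are uncertain in the same way as for Prdx5 and Gstz1 among the m6A results.

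Genes of the same pathways that are not members were taken from 7 lists, 60 genes in all, of which 20 were higher, 20 lower and 20 not listed, beside the 27.1% higher and 26.4% lower among all genes tested. The counts of the single lists, of 4 to 12 genes each, stand beside the same shares and were not tested against them. Partners and regulators of Nrf2 were higher in 7 of 10, lower in 0 and not listed in 3. They included Nfe2l3, a relative of Nrf2 (1.19, SE 0.17), the small Maf partner Maff (1.06, SE 0.17) and Bach1, a repressor at antioxidant response elements (0.55, SE 0.13), in the authors' deposited table. Rbx1, a subunit of the ubiquitin ligase that Keap1 recruits, was at 0.68 (SE 0.13) in the authors' deposited table. Oxidant-producing enzymes were higher in 5 of 8 and lower in 0, among them the NADPH oxidase Nox4 (1.95, SE 0.63, mean count 8.83), xanthine dehydrogenase Xdh (0.91, SE 0.13), the dual oxidases Duox2 (0.51, SE 0.16) and Duox1 (0.40, SE 0.12) and the Duox maturation factor Duoxa1 (0.44, SE 0.10) in the authors' deposited table.

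Cysteine supply and glutathione turnover had 1 of 11 higher and 6 lower. Cth, which makes cysteine from cystathionine (-5.83, SE 0.24), the cystine importer Slc7a11 (-4.65, SE 0.20) and Chac1, which degrades glutathione (-2.70, SE 0.13), led the falls, and Ggt1, which splits extracellular glutathione, was at -2.66 (SE 0.68, mean count 10.6) in the authors' deposited table. Its exception was Chac2 (0.90, SE 0.16) in the authors' deposited table. Enzymes that supply NADPH had 2 of 9 higher and 4 lower, with the cytosolic isocitrate dehydrogenase Idh1 at 2.13 (SE 0.12) in the authors' deposited table. The pentose phosphate enzymes were split, with Taldo1 higher (0.55, SE 0.10), Tkt (-0.74, SE 0.10) and G6pdx (-0.41, SE 0.09) lower in the authors' deposited table, and Pgd and Pgls not listed. The mitochondrial isocitrate dehydrogenase Idh2 was at -0.66 (SE 0.11) and malic enzyme Me1 at -0.53 (SE 0.11) in the authors' deposited table.

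Glutaredoxins, which use glutathione to reduce protein disulfides, were evenly divided. Glrx (2.24, SE 0.13) and Glrx2 (1.06, SE 0.14) were higher, while Glrx5 (-0.65, SE 0.15) and Glrx3 (-0.53, SE 0.11), both of iron-sulfur cluster handling, were lower in the authors' deposited table. Of 12 other Nrf2 targets, 3 were higher and 4 lower, with the exporter Abcc4 at -2.03 (SE 0.16), Cbr3 at -1.02 (SE 0.31), Aifm2 at 0.79 (SE 0.20), the epoxide hydrolase Ephx1 at 0.45 (SE 0.08) and Cbr1 at 0.54 (SE 0.16) in the authors' deposited table. Factors that insert selenocysteine, the residue in the active site of Gpx1, Gpx3 and both thioredoxin reductases, were lower in 4 of 6 and higher in 0, led by the elongation factor Eefsec (-1.43, SE 0.13) and Pstk (-0.98, SE 0.21) in the authors' deposited table.

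**Figure D2:**
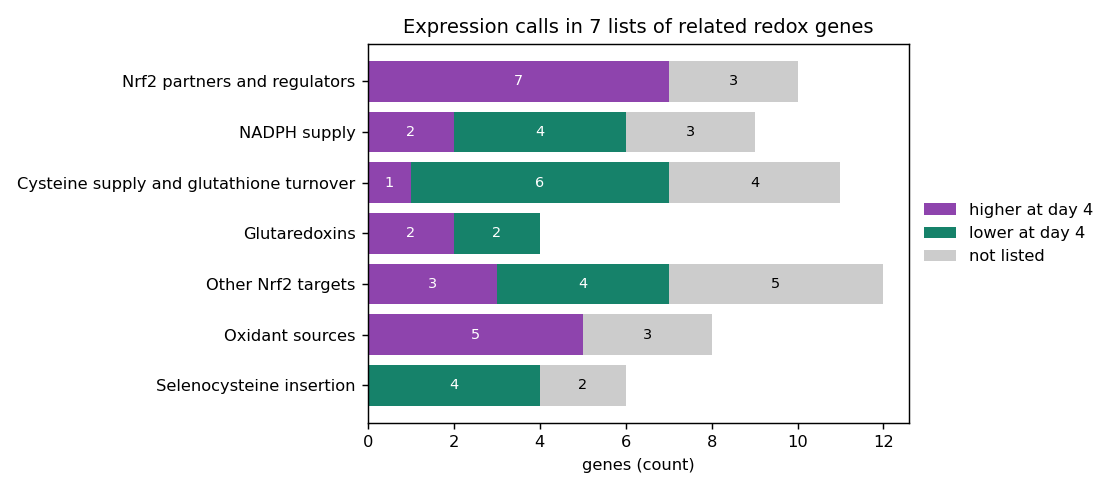
Number of genes higher at day 4, lower at day 4 or not listed in the expression table, for 7 lists of related redox genes. Nrf2 partners (7 higher, 0 lower) and oxidant sources (5 higher, 0 lower) hold no lower gene, and the selenocysteine list (0 higher, 4 lower) holds no higher one.

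The peak lists show where m6A lay on each day. Of all 10751 gene symbols, 6945 had a listed peak at day 4 and 7379 at day 0. A similar share of the 46 members did, 30 at day 4 and 32 at day 0. Both days were shared by 29 genes, Prdx1 had peaks at day 4 only, and Gsta1, Gsta2 and Prdx3 had peaks at day 0 only. Of all 7992 genes with a peak, 7.67% had peaks at day 4 only, 13.1% at day 0 only and the other 79.2% at both. Of the 31 members in the expression table, 17 had a day 4 peak and 19 a day 0 peak, where 55.8% and 59.5% of all genes in that table did. The 11 without a peak on either day included both thioredoxin reductases, Txn1, Gclm, Gsr, Gpx3 and Nqo1. The RNA of Gsta1, Gsta2 and Prdx3 was lower and that of Prdx1 higher at day 4. Genes with peaks on a single day were those from which the direction of change was read, so this pairing is not separate support. The part of transcript level in which peaks were listed was not tested.

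**Figure D3:**
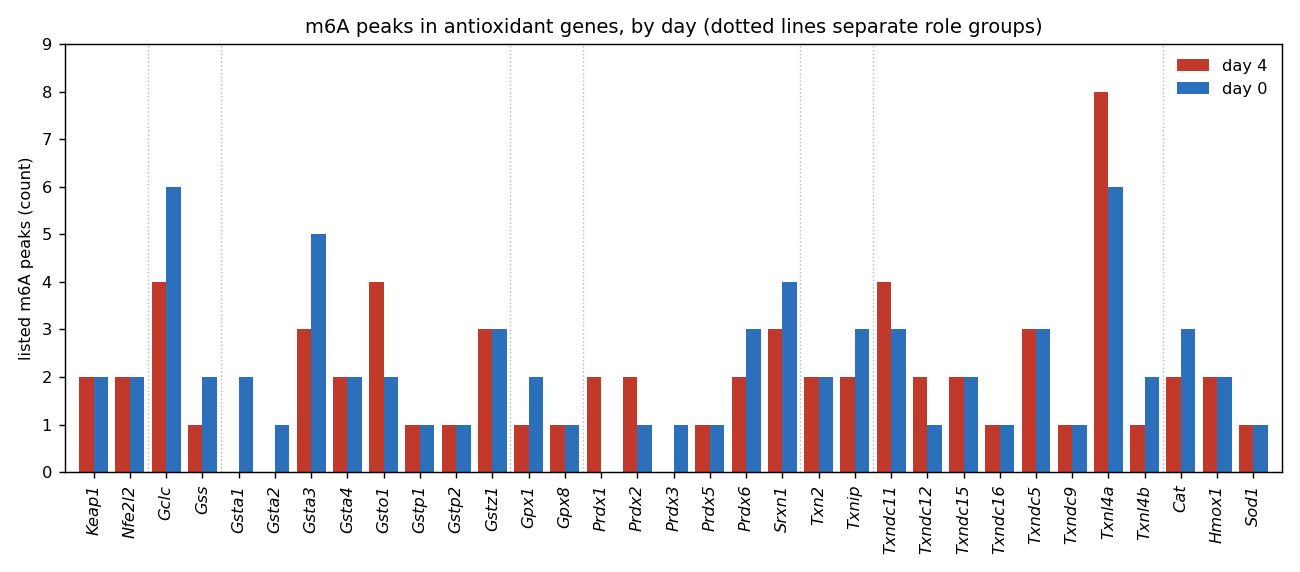
Listed m6A peaks per gene at day 4 (left bar) and day 0 (right bar) for the 33 members with a peak, with dotted lines between role groups. Txnl4a has most at day 4, with 8, and Txnl4a and Gclc have most at day 0, with 6 each; Prdx1 has bars at day 4 only, and Gsta1, Gsta2 and Prdx3 at day 0 only.

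Members held 66 peaks at day 4 and 72 at day 0, at mm10 positions. These include the 8 thioredoxin-domain and thioredoxin-like genes, which all had peaks on both days. Txnl4a alone had 8 at day 4 and 6 at day 0. The shares below were not counted without these genes. Gclc had 4 at day 4 and 6 at day 0, and Txndc11, an endoplasmic reticulum protein, had 4 at day 4 and 3 at day 0. Catalase, Cat, which breaks down hydrogen peroxide, had 2 at day 4 and 3 at day 0, and Gss had 1 at day 4 and 2 at day 0. An overlap of at least 1 bp on the same strand joined 56 of the day 4 peaks to a day 0 peak (84.8%, against 78.9% of all day 4 peaks), and 56 of the day 0 peaks to a day 4 peak (77.8%, against 70.2%). The authors' enrichment scores, comparable only within a list, were lower in members than in the list at large, with a median of 8.78 against 17.1 at day 4 and 9.29 against 21.4 at day 0. Where scores of both days are given below, each describes its own list and the pair does not measure a change. Member peaks lay near gene ends more often than peaks in general. Of the 66 day 4 peaks, 41 (62.1%) ended no more than 1000 bp from the gene's 3′ end, against 31.2% of peaks in all protein-coding genes, and at day 0 these shares were 55.6% and 29.7%. Members with a peak also had shorter genes, with a median annotated length of 12015 bp, against 23860 bp for all protein-coding genes with a peak, and the part of length in this difference was not tested.

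The strongest member peak in either list lay in Txndc16 on chromosome 14, 1193 bp from the annotated 3′ end at day 4 and 1243 bp from it at day 0. It had a score of 223.9 at day 4, from 45135641 to 45135740, above 96.9% of that list, and a score of 325.0 at day 0, from 45135691 to 45135740, above 96.8% of that list. Keap1, the Nrf2 inhibitor, had a long peak toward its 3′ end on chromosome 9, from 21230127 to 21231302 (score 68.6) at day 4 and from 21230127 to 21231253 (score 215.02) at day 0, and a second peak further upstream on both days. Nfe2l2 was marked near its 3′ end on chromosome 2 on both days, by 2 adjacent peaks from 75676111 to 75677049 at day 4 (scores 11.6 and 18.3) and by a single peak from 75676111 to 75677000 at day 0 (score 13.1). A further Nfe2l2 peak, from 75679312 to 75679411, was listed at day 0 only, with a score above 0.828% of that list. No site in Nfe2l2 or Keap1 was called as changed.

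Srxn1, on chromosome 2 from 152105524 to 152111376, was marked over the same stretch on both days, and its RNA rose. At day 4 its main peak ran from 152109058 to 152109995 (score 22.6), and at day 0 the same stretch was listed as 3 peaks between 152109058 and 152109946, with scores of 6.69, 24.3 and 5.17. A peak within 100 bp of the gene's 3′ end was listed at both days (score 6.67 at day 4 and 4.92 at day 0). No Srxn1 site was in the methylation table. Hmox1, the haem oxygenase that is a classic Nrf2 target, and Gclc likewise had peaks on both days and no called site.

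The methylation comparison addresses where m6A changed during differentiation. Of the 6 peroxiredoxins, 5 gained m6A at 1 or more sites, and Prdx3, with a peak at day 0 only, had no called site. Prdx4 had no listed peak and no expression value, so it was a member only through its gaining site. The same held for the transferase Mgst2, and both raise the counts of gains given here. In total, 12 sites in 10 members were called in the authors' deposited table, 10 gains in 8 genes and 2 losses in 2 genes. Over the whole table, 4.79% of the 36796 sites that its adjustment implies were tested were called as gains and 2.17% as losses, and gains made up 68.8% of its 2561 sites. Of the 8073 genes with a peak or a site, 17.8% had a gaining and 9.15% a losing site. The 46 members, by contrast, include 13 without a peak, and of these only Prdx4 and Mgst2 had a site. The log base of the change is not stated, so values are given as the authors' log fold change, positive for higher at day 4, with the authors' false discovery rate (FDR).

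**Figure D4:**
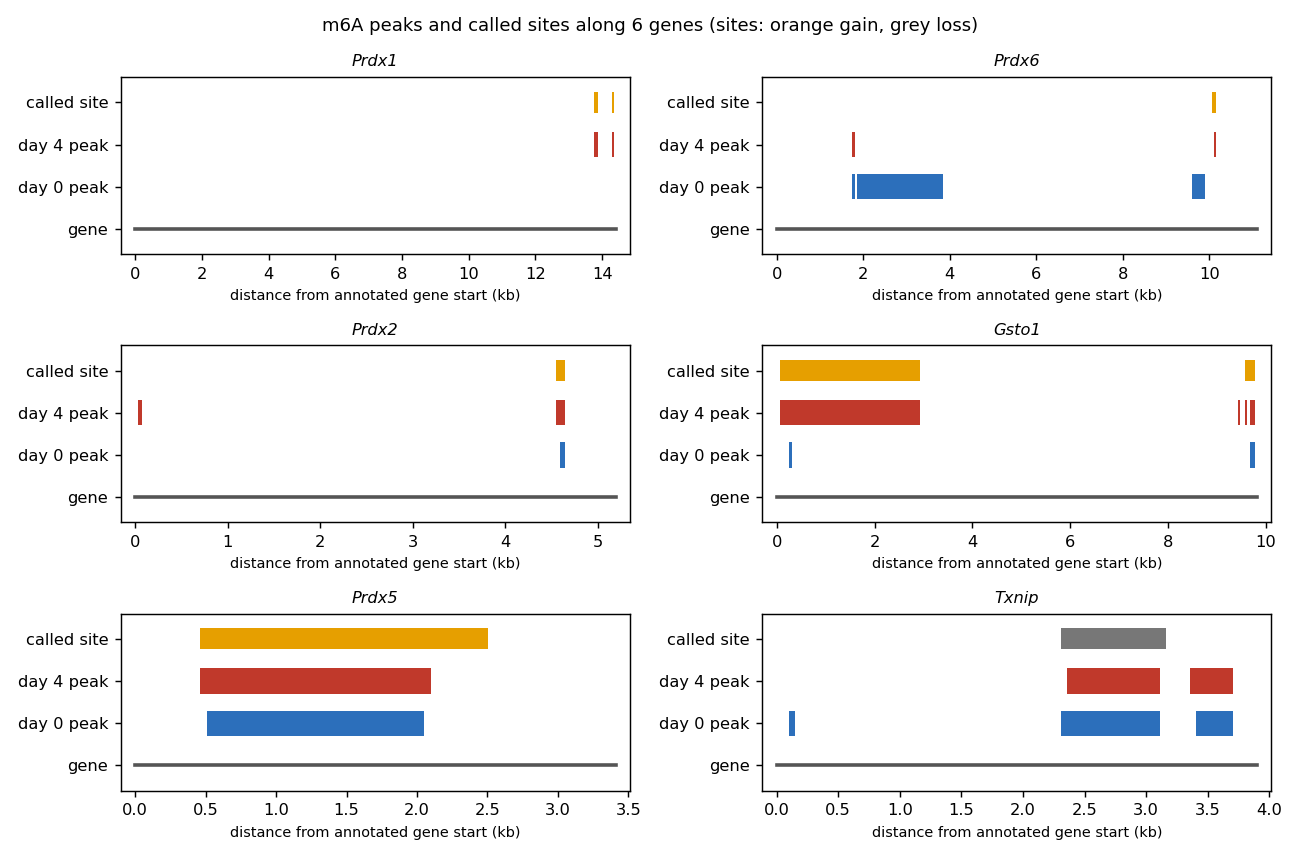
Positions of called sites (orange gain, grey loss), day 4 peaks and day 0 peaks along 6 genes, in kb from the annotated gene start; long bars may span introns. Prdx1 has peaks in the day 4 row only, and its 2 sites coincide with them, ending 537 and 49 bp from the gene's 3′ end.

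Prdx1, on chromosome 4, had 2 gaining sites at the exact places of its 2 day 4 peaks. The site from 116699365 to 116699463 had a log fold change of 2.81 (FDR 3.0e-04) and the site from 116699902 to 116699951 one of 5.07 (FDR 0.0169) in the authors' deposited table. The scores of these day 4 peaks were 14.7 and 60.4, and no day 0 peak was listed in the gene. Sites over a day 4 peak only, as here, were among those from which the direction of change was read. Prdx2, on chromosome 8, gained at 84974165 to 84974263 (1.37, FDR 0.00112) in the authors' deposited table, where peaks of score 43.7 at day 4 and 35.9 at day 0 were listed. Prdx5, on chromosome 19, gained over 6907602 to 6909645 (1.54, FDR 4.4e-04) in the authors' deposited table, over peaks of score 7.91 at day 4 and 3.26 at day 0. Prdx5 overlaps Trmt112 in the annotation, and the strand setting of the read assignment is not given here.

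Prdx6, on chromosome 1, gained at 161241058 to 161241157 (2.18, FDR 3.8e-04) in the authors' deposited table, over a day 4 peak of score 20.9 and no day 0 peak. Its nearest day 0 peak, from 161241307 to 161241604 with a score of 4.09, had no day 4 counterpart. The Prdx4 site, on chromosome X from 155323969 to 155324018, had an infinite gain (FDR 0.0258) in the authors' deposited table and overlapped no listed peak on either day. A 50-base site of Mgst2 on chromosome 3, from 51681806 to 51681855, was likewise infinite (FDR 5.6e-04) in the authors' deposited table and outside all listed peaks. An infinite value has no size, so these 2 sites are directions only.

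Gsto1, on chromosome 19, gained near its start and at its 3′ end. The site near its start, from 47855037 to 47857907, had a log fold change of 1.97 (FDR 9.1e-07) in the authors' deposited table. The day 4 peak there spanned 2871 bp, with a score of 4.37. The day 0 peak there spanned 50 bp, with a score of 1.28, above 0.035% of its list. The site within 50 bp of the annotated 3′ end, from 47864546 to 47864740, had 1.30 (FDR 0.00143) in the authors' deposited table. Gpx1, on chromosome 9, gained at 108339279 to 108339328 near its start (3.18, FDR 0.0161) in the authors' deposited table, where no peak was listed on either day. Its listed peaks lay near the 3′ end, 1 at day 4 and 2 at day 0. In all, 3 of the 12 member sites overlapped no listed peak, as did 22.8% of all called sites.

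Both losses were in genes with peaks on both days. Txnip, on chromosome 3, lost over 96560264 to 96561120 (-0.66, FDR 0.00287) in the authors' deposited table, over its main peak, which had a score of 22.8 at day 4 and 49.2 at day 0. Gstz1, on chromosome 12, lost over 87163028 to 87164282 (-0.54, FDR 0.0406) in the authors' deposited table, over peaks of score 29.1 at day 4 and 53.2 at day 0. Gstz1 overlaps Pomt2 in the annotation.

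Methylation and expression changes of the same genes were set side by side. Of the 8 genes with a gain, 4 were higher in expression (Prdx1, Prdx2, Prdx5 and Gsto1), 2 lower (Prdx6 and Gpx1) and 2 not listed (Prdx4 and Mgst2). Both genes with a loss, Txnip and Gstz1, were lower. In the whole table, 54.1% of the 1011 expression-listed genes with a gain were higher at day 4, as were 43.6% of the 466 with a loss. None of the 6 members changed at least 2-fold at a mean count of at least 100 (Gpx3, Srxn1, Gsta1, Gsta2, Gsr and Gclm) had a called site. Of these, Gpx3, Gsr and Gclm had no listed peak on either day, and Gsta1 and Gsta2 had none at day 4. The share with a called site among all genes at the same limits was not counted, so no relation between the 2 kinds of change is read from this.

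**Figure D5:**
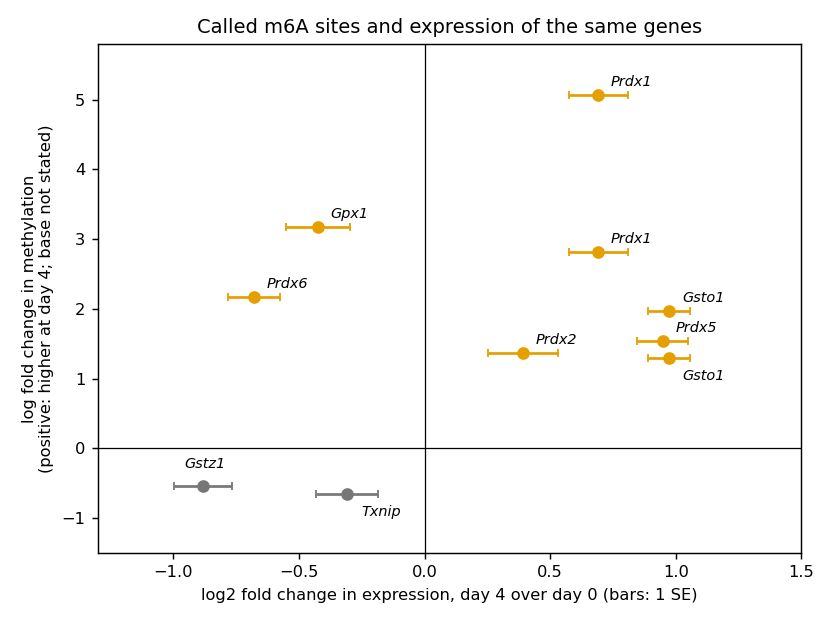
Log fold change in methylation of each called site with a finite value (vertical axis, base not stated) against the log2 fold change in expression of its gene (horizontal axis, bars of 1 standard error), both positive for higher at day 4. The gains of Gpx1 and Prdx6 lie left of 0, those of Prdx1, Prdx2, Prdx5 and Gsto1 right of it, and the losses of Gstz1 and Txnip left of it.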

How the data were processed

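RNA of 12 libraries was compared, grouped by title. Per the labels' protocols, polyadenylated RNA was sonicated, enriched with an m6A antibody kit and sequenced from a stranded library kit. Per the submitters' processing notes, HISAT2 2.1.0, DESeq2 1.18.1 and build mm10 were used. No source used here names the peak caller or the methylation test. Per the file headers, the authors' peak lists hold an enrichment score and an unadjusted p-value per peak, 1 list per day. The authors' expression table holds a mean normalized count (a signal over the compared libraries), a log2 fold change with its standard error, a test statistic and p-values. Values in the authors' methylation table are log fold changes of unstated base, handled as a score, with p-values. Both list only calls under 0.05.

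Direction was read as day 4 over day 0: 93.8% of 497 listed genes with peaks at day 4 only were positive, against 4.02% of 797 with peaks at day 0 only, and 98.8% of 419 sites over day 4 peaks only, against 24.4% of 119 over day 0 peaks only. Numbers tested were derived from adjusted p, p and rank, and this step, the motif search and the overlaps were tested on simulated data. No test across replicates or of lists was made. Members and lists were chosen with earlier results of these data known. Values are given for members changed at least 2-fold at a mean of at least 100, for the single-gene members, for those with a called site or with peaks on 1 day only, and for up to 4 genes a list plus the largest the other way; others were added after their values were seen. Gene spans and promoters are from RefSeq (GRCm38.p6, the assembly of mm10), and all 46 symbols matched. Software was Python 3.11.15, numpy 2.4.6, pandas 2.3.3 and matplotlib 3.10.9. Exons and sequence under peaks were not analysed here.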

Additional observations from a re-analysis of the deposited data

How the results depend on the processing

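Of 28 alternatives for 9 counts, 22 stayed within 1.5 times the reported count. With a change of at least 2-fold, 4 members were higher and 5 lower, instead of 11 and 20. With peaks above the median enrichment score of each list only, 19 members had a day 4 peak and 16 a day 0 peak, instead of 30 and 32. At a false discovery rate under 0.01, 1 losing site remained (Txnip), with 7 gaining sites. The core element with a further A left 2 member promoters instead of 11. Leaving out members that overlap another protein-coding gene, chosen after seeing the data, left 9 higher and 16 lower, and leaving out Gsta1, Gsta2, Gstp1 and Gstp2, also chosen after seeing the data, left 11 and 17. No paired analysis was possible because no table has a column per library, and leaving out replicates was not run for the same reason. Depth is unknown, so peaks missing from a list in low transcripts cannot be told from unmethylated RNA.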

Other observations

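Of the 60 genes in the 7 lists of related redox genes, 5 had a gaining and 3 a losing m6A site, while 17.8% of the 8073 genes with a peak or a site had a gaining and 9.15% a losing one; the 60 include genes with neither peak nor site. Fth1, the heavy chain of the iron store ferritin, gained at 2 sites on chromosome 19, with log fold changes of 3.00 (FDR 7.8e-13) and 1.53 (FDR 0.00375), while its RNA was at -0.42 (SE 0.09) in the authors' deposited table. Duox1, a hydrogen peroxide source of epithelia, gained at 2 sites (3.38 and 1.32) with RNA at 0.40 (SE 0.12) in the authors' deposited table. Bach1 (0.68), Nfe2l1 (0.49) and Osgin1 (1.66) gained at 1 site each, and Rbx1 (-1.31), Sephs2 (-1.01) and Glrx (-1.85) lost at 1 site each in the authors' deposited table. Glrx had 2 listed peaks at day 4 and 0 at day 0, and its losing site, on chromosome 13 from 75839984 to 75840033 (FDR 2.7e-11 in the authors' deposited table), overlapped no listed peak on either day.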
